A study of Solenopsis invicta with 3 samples.

Results

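The merged transcript models of fire ant worker antennae held 12184 new splice forms of known genes. They are the models that carry class code j, the code that the comparison step of the Cufflinks tools gives to a spliced model that shares splicing with a reference gene model but not its whole chain of introns. They made up 21.2% of the 57377 models and lay in 5044 of the 37105 loci (13.6%), a locus being a group of overlapping models under 1 gene identifier. Every one of these loci also held at least 1 class = form, whose intron chain is that of a reference model of the same locus. The rule used the class code alone. All 12184 class j forms were spliced, all shared at least 1 splice site with the reference model named as their nearest, and all had an intron chain of their own. The word new therefore means absent from the reference gene models, on the Si_gnH assembly of the fire ant genome.

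RNA came from the antennae of *Solenopsis invicta* workers of 3 classes. P_Bb workers came from polygyne colonies, which have several queens, and carried both variants of the social supergene (SB/Sb). P_BB workers came from polygyne colonies and were SB/SB. M_BB workers were SB/SB as well and came from monogyne colonies, which have 1 queen. Each class was 1 library that pooled the separately amplified (NuGEN Ovation) cDNA of 4 colonies. P_Bb and P_BB came from the same polygyne colonies and M_BB from other colonies, so social form and colony cannot be told apart. The libraries held 3351500 (P_Bb), 3421923 (P_BB) and 3948464 (M_BB) expected counts over the genes of the expression tables. The models pool the libraries, by the title of the deposited table (which libraries entered is not stated elsewhere), so a splice form has no level per class and no replicate here, and all values below describe the models. The names of the reference genes in the models did not occur in the expression tables (0 of 16511 names) or in the RefSeq gene table (0 matched), so genes are given by the names in the models, without expression values and without known functions.

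A gene is transcribed into a precursor RNA whose introns are cut out between a donor site at the 5′ end and an acceptor site at the 3′ end of each intron. Alternative splicing joins other pairs of sites, so that an exon is skipped or added, an exon edge moves, or an intron stays in the RNA. A change of coding length by a multiple of 3 bases keeps the reading frame downstream of it, and any other change shifts the frame. Other first and last exons usually come from other transcription start sites and polyadenylation sites, and often lie in the untranslated ends of the messenger RNA. In *Drosophila* and other insects, alternative splicing is known from sex determination and from the diversity of neuronal surface proteins.

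Most loci with class j had several new forms. More than 1 form was present in 3028 of the 5044 loci (60.0%, 95% Wilson interval 58.7 to 61.4%), with a mean of 2.42 and a median of 2 forms per locus. A single form was found in 2016 loci, 2 forms in 1240, 3 in 744 and 4 in 445. The 599 loci with 5 or more forms held 30.2% of all class j forms, and 18 loci had 10 or more. Such intervals cover counting error only, and the forms of a locus share reads.

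How often a locus had a new form went with how many introns its class = forms had. The 2 counts are not independent. A class j form must share a splice site, and more introns offer more sites. Introns were counted over all class = forms of a locus, and forms that join genes can bring them into 1 locus. More than 1 reference gene was held by 1144 of the 5044 loci with class j. Among the 10849 loci with a spliced class = form, 46.5% had a class j form. The share was 19.4% of 2650 loci with 1 reference intron (interval 17.9 to 20.9%) and 37.4% of 3397 loci with 2 to 3 introns. It was 61.2% of 3067 loci with 4 to 7 introns, 78.6% of 1460 loci with 8 to 15, and 84.7% of 275 loci with 16 or more (80.0 to 88.5%). Where a new form was present, the mean number of forms was 1.56, 1.79, 2.34, 3.14 and 4.71 in the same order.

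**Figure D1:**
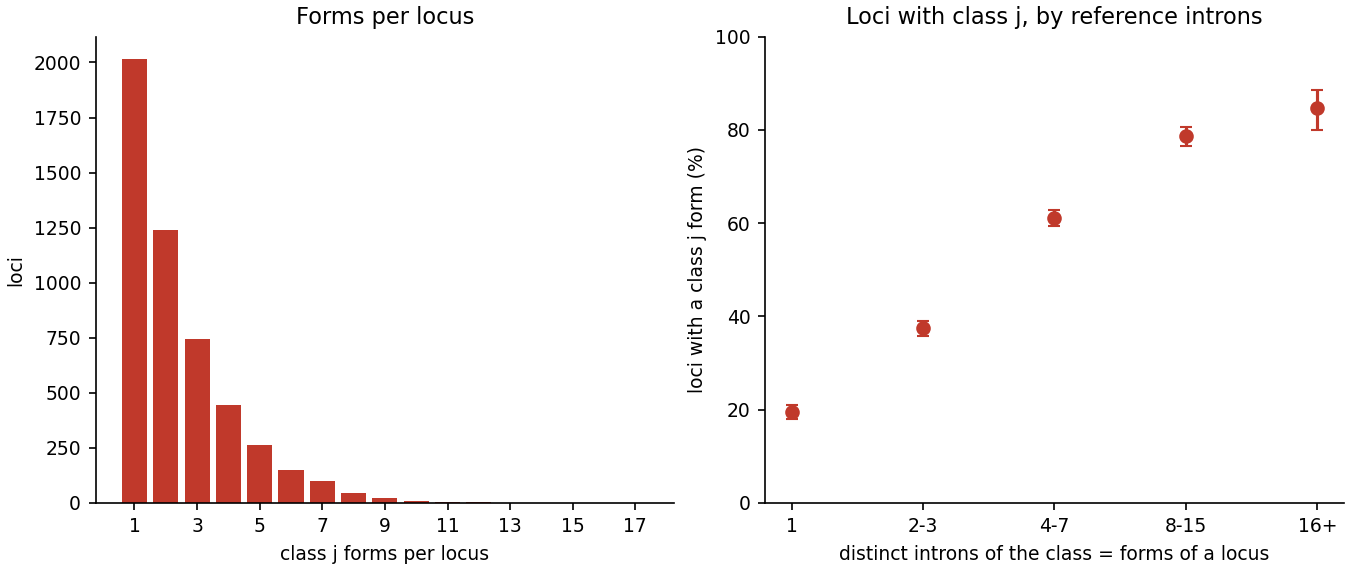
Left, number of loci (y axis) by the number of class j forms they held (x axis), with 2016 loci at 1 form. Right, percent of loci with a spliced class = form that also had a class j form (points, with 95% Wilson intervals as bars), by the number of distinct introns in the class = forms, from 19.4% at 1 intron to 84.7% at 16 or more.

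The new forms of a locus differed among themselves. In the 3028 loci with more than 1 form, the longest form was a median of 1.28 times as long as the shortest (quartiles 1.08 and 1.92), and the forms spread over a median of 2 exons (1 to 4). In 496 of these loci all forms had the same number of exons. The models assign forms to groups that share a transcription start, and 2114 of the 3028 loci (69.8%) had class j forms of more than 1 start group, up to 10 groups in 1 locus. Of the 13800 new introns in these loci, 42.6% occurred in a single form and 21.3% in every class j form of the locus. Over all its new forms, such a locus showed a median of 3 of the 11 kinds of difference described below (quartiles 2 and 4).

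The locus with most new forms was XLOC_018493 on the minus strand of scaffold00056 (1215128 to 1231932), with 17. Its class = forms are SINV25709 with 13 exons and SINV25718 with 1 exon. The new forms had 3 to 14 exons and lengths of 2448 to 6486 bases, against 3603 bases for SINV25709 and 177 bases for SINV25718. They held 21 distinct introns, 9 of them new, and no intron was common to all 17. The forms fell into a group over the 5′ part of SINV25709 and a group over its 3′ part, and only TCONS_00028366 and TCONS_00028367, both with 14 exons and 5322 bases, covered it from the first exon to the last. Retained introns occurred in 11 of the forms, new first exons in 11, and 8 also covered SINV25718.

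**Figure D2:**
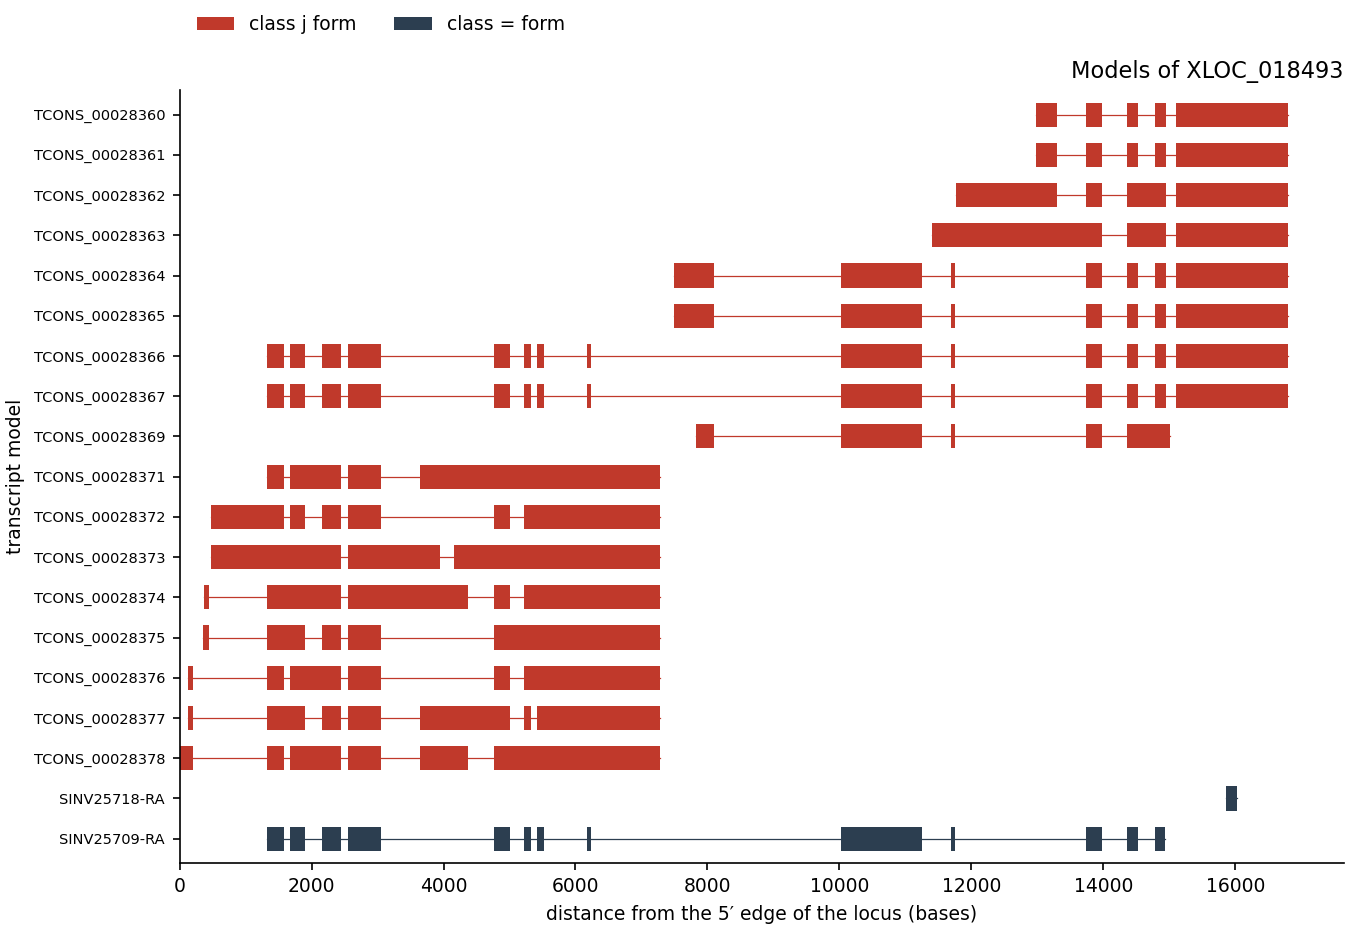
Map of the models of XLOC_018493, the locus with most new forms, drawn 5′ to 3′. The x axis is the distance in bases from the 5′ edge of the locus, boxes are exons, lines are introns, the 17 class j forms (red) stand above the class = forms (dark blue), and most new forms cover either the left or the right part of SINV25709.

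The next loci by number of new forms all joined several reference genes. XLOC_028590 (scaffold00210, minus strand, 101073 to 237942) had 13 forms over 6 reference genes, with 5 to 52 exons and lengths of 12753 to 38790 bases. XLOC_028897 (scaffold00218, plus strand, 233307 to 271489) had 12 forms over 3 genes, all 12 with added internal exons and 11 with a new first exon. XLOC_029904 (scaffold00243, plus strand, 120979 to 156230) also had 12, over SINV15134 and SINV15741, 10 of them with added internal exons and none with a retained intron.

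The fifth place was shared by 4 loci with 11 new forms each. Of these, XLOC_020618 (scaffold00076, plus strand, 950780 to 957597) held a single reference gene, SINV10440, with 9 exons and 1785 bases. Its 11 forms had 2 to 8 exons, fewer than SINV10440 in every case, and lengths of 1053 to 2263 bases. They used 14 distinct introns, 10 of them new, and 1 intron was present in all 11 forms. New first exons occurred in 7 forms, the earliest starting at 950780, against a start of 952784 for SINV10440. The other loci with 11 forms were XLOC_013986 (SINV17306 and SINV17524, scaffold00030), XLOC_020085 (3 genes, scaffold00071) and XLOC_027510 (8 genes, scaffold00182), where 5, 9 and 9 of the forms joined genes.

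Class j forms were longer than the class = forms of the same loci and had more exons. The median was 7 exons in class j (quartiles 5 and 11) and 4 in the 7535 class = forms (2 and 7). The median spliced length was 3800 bases in class j (2364 to 6047) and 1143 bases in class = (545 to 2175). On the genome, class j forms spanned a median of 8124.5 bases and class = forms 2793 bases. Of the class = forms, 721 had a single exon, while the class j forms with fewest exons had 2 (511 forms) and 577 had 20 or more.

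Outer exons carried more of the difference in mean length than internal exons. The mean length was 4741 bases in class j and 1735 bases in class =. Of the difference of 3006 bases, 62.1% lay in the first and last exons and 37.9% in the internal exons, of which class j forms had more. The last exon had a median of 1425 bases in class j (quartiles 659 and 2845) and 194 bases in class = (117 and 358). The first exon had a median of 283 bases in class j and 165 bases in class =. Single internal exons were nearly alike in length, at 194 bases in class j (137 to 291) and 191 bases in class = (135 to 272). Introns had a median of 191 bases in class j (90 to 623) and 168 bases in class = (86 to 470).

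Set against the class = forms of its own locus, class j had a median of 1 exon more (quartiles 0 and 2.5). The median exon number was higher in 3160 loci (62.6%), lower in 1235 (24.5%) and equal in 649 (12.9%). The median length was higher in 4840 of 5044 loci (96.0%), by a median of 1652 bases (777 to 3233). The span was higher in 4522 loci (89.7%), by a median of 2541 bases.

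The difference in length depended on which class = forms were used. In the loci with class j, 6812 class = forms were copies of reference models. The other 723, in 714 loci, carried an identifier of the assembly step and had the same introns as a reference model. Their shortest intron had 5 bases, and whether each of their introns was seen in reads was not tested. The length was a multiple of 3 in 33.2% of class j forms and 34.6% of all assembled class = forms, against 90.0% of all 16521 reference copies, so most reference models are a whole number of codons long. Assembled class = forms had a median of 3907 bases and 5 exons, and reference copies 1005 bases and 4 exons. Within the 714 loci, assembled class = forms exceeded the reference copies by a median of 2417.5 bases and 0 exons.

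Against assembled class = forms, the difference in length was smaller and its sign depended on how loci were weighed. Over all forms in the 714 loci, the median was 4358 bases in class j (interval 4183 to 4519) and 3907 bases in assembled class = forms (3735 to 4074), and the median span was 8575 bases in class j and 5923 bases in assembled class = forms. Within each locus, the median difference in length was -24.5 bases (class j minus assembled class =, order-statistic interval -58 to 12). Class j was longer in 339 loci and shorter in 375. The median difference in exons was 0 (more in 309 loci, fewer in 296, equal in 109), and that in genomic span was 0 bases with an upper quartile of 3911. The assembled class = forms are a selected set, since forms identical to a reference model can be listed under its copy. In 712 of the 714 loci they were longer than the copies, and the shortest had 1246 bases, against 331 bases for the shortest class j form.

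**Figure D3:**
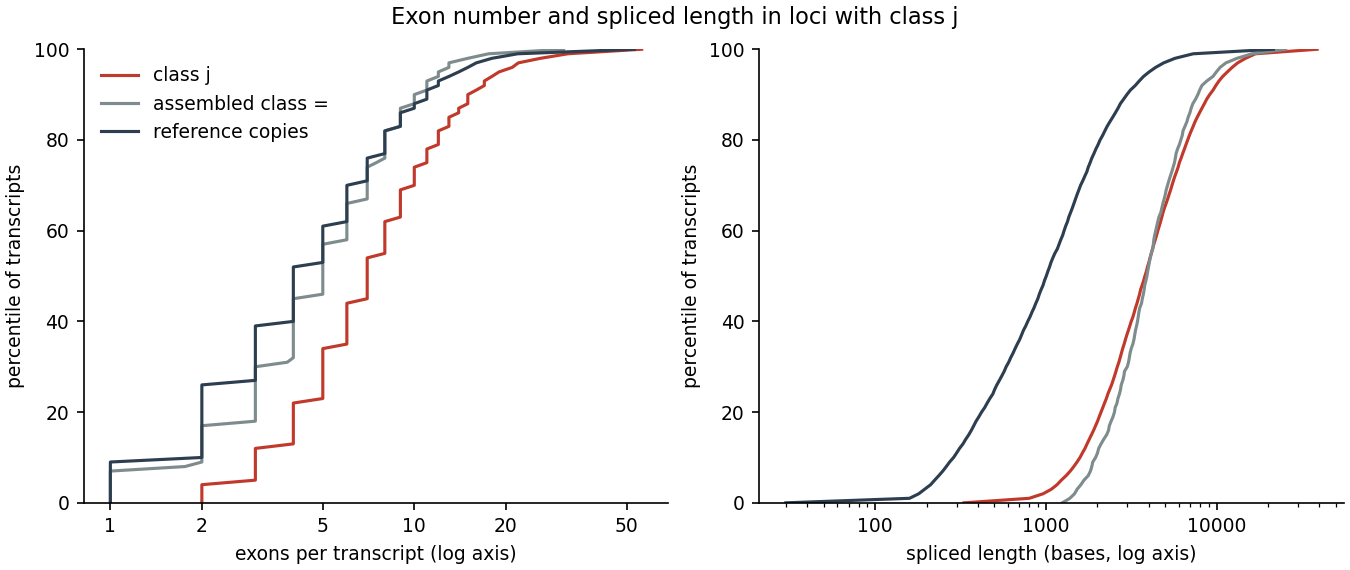
Percentile of transcripts (y axis) against exons per transcript (left) and spliced length in bases (right), both on log axes, in loci with class j. Lines are 12184 class j forms (red), 723 assembled class = forms (grey) and 6812 copies of reference models (dark blue). In length, class j (median 3800 bases) lies beside the assembled class = forms (3907) and far from the copies (1005).

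Most new forms reached beyond the reference models at their ends. This is not particular to class j. Assembled class = forms, which have the introns of a reference model, also spanned more than the copies in 698 of 714 loci, by a median of 2422 bases. At the 5′ end, 7818 class j forms (64.2%) started upstream of every class = form of the locus, 2407 started inside and 1959 at the same base, with a median of 306 bases beyond (quartiles 0 and 1521). At the 3′ end, 8840 forms (72.6%) ended downstream of every class = form, 1755 ended inside and 1589 at the same base, with a median of 878 bases beyond (0 to 2620).

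The introns of the new forms were in part those of the reference. Class j forms held 42648 distinct introns, of which 25720 (60.3%) were also in a class = form of the locus and 16928 were new. A class j form had a median of 2 new introns (quartiles 1 and 3, at most 45). No new intron was present in 1590 forms (13.0%), of which 892 had a retained intron, 880 an end inside an intron and 34 neither. There were 3685 forms (30.2%) with 1 new intron, 2495 (20.5%) with 2 and 4414 (36.2%) with 3 or more. Conversely, 4953 class = introns (16.1% of 30673) occurred in no class j form of their locus, and 632 class j forms shared a splice site but no whole intron with the class = forms.

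New introns were longer than the shared ones and mostly used 2 new splice sites. The median was 445 bases for new introns (quartiles 132 and 1887) and 147 bases for shared introns (85 and 410). Introns over 1000 bases made up 34.4% of the new and 10.4% of the shared introns. Both splice sites were new in 70.8% of the new introns. This holds by position alone for introns upstream (23.5%) or downstream (12.4%) of every class = form. A known donor went with a new acceptor in 13.7%, a known acceptor with a new donor in 13.6%, and known sites were paired anew in 1.97%. New introns inside a class = form (35.2%) had a median of 244 bases and those downstream of every class = form (12.4%) 219 bases. Those upstream of every class = form (23.5%) had a median of 600 bases, and those lying between or across class = forms (17.2%) had 2011.5 bases. Those across an outer end of the class = forms (11.7%) had 1147 bases.

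To describe what changed, each class j form was compared with all class = forms of its locus, and 11 kinds of difference were recorded. A form can have several. A single kind was found in 4111 forms (33.7%), 2 or more in 65.9%, and none in 45 forms. New first exons were the most frequent kind, in 5850 forms (48.0%, interval 47.1 to 48.9%). They were followed by added internal exons (4098 forms, 33.6%). Retained introns (3071, 25.2%) and new last exons (3042, 25.0%) had overlapping intervals, and exons of more than 1 reference gene lay in 1 form in 2813 cases (23.1%). Shifted acceptors were found in 2121 forms (17.4%), ends inside a reference intron in 1978 (16.2%) and shifted donors in 1911 (15.7%). Both sites of an intron were moved in 1228 (10.1%), a reference exon was split by an added intron in 741 (6.08%), and an exon was skipped in 542 (4.45%).

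**Figure D4:**
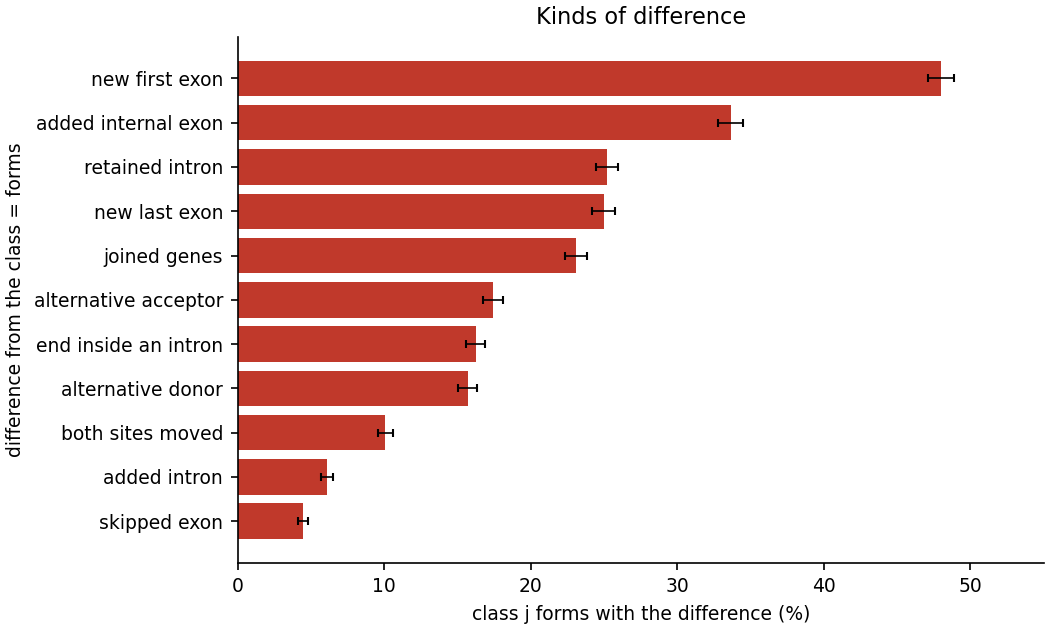
Percent of the 12184 class j forms (x axis, bars with 95% Wilson intervals) that show each kind of difference from the class = forms of their locus (y axis). A form can show several kinds. New first exons lead with 48.0% and skipped exons come last with 4.45%.

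A smaller part of the forms left a reference chain untouched. The whole intron chain of a class = form was kept, with no intron lost or altered, in 3883 class j forms (31.9%, interval 31.0 to 32.7%). Of these, 3032 differed only by added exons, new first or last exons, or a further gene, and 2558 had a new first exon. The other 8301 forms (68.1%) changed or lacked part of each reference chain. Shifted donors were rare among forms that kept a chain (150 of 1911 forms with a shifted donor), and so were skipped exons (45 of 542). In such forms the altered gene is another one of the locus, or another class = form of it.

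New first or last exons were present in 7490 forms (61.5%), and both in 1402 (11.5%). Of the new first exons, counted per form, 89.7% lay outside every class = form, 6.97% inside an intron and 3.32% between class = forms. The 4721 distinct new first exons had a median of 207 bases (quartiles 94 and 398), and those outside lay a median of 1404 bases from the nearest end of a class = form (478 to 6197). The 1898 distinct new last exons were longer, with a median of 960 bases (392.25 to 2137), and those outside lay a median of 1102 bases away. Most reference models are a whole number of codons long. Whether exons outside them are other starts and ends, or untranslated ends that the models lack, was not tested. An example of a new first exon as the only recorded kind of difference is TCONS_00011036 of SINV15069 (scaffold00010, plus strand, 2998891 to 3006513). It keeps all 13 introns of the class = form and adds a first exon of 202 bases (2998891 to 2999092) before an intron of 106 bases. The new intron ends inside the first exon of the class = form, so exon 2 has 141 bases, against 144 there. The last exon of TCONS_00011036 has 1871 bases, against 285 bases in the class = form.

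A new last exon can also shorten a form. TCONS_00016994 of SINV16582 (scaffold00021, plus strand, 2466333 to 2480539) shares 12 introns with its class = form and then ends in a new exon of 700 bases (2479840 to 2480539), reached through a new intron of 1890 bases. The form has 14 exons and 2526 bases, against 25 exons and 3738 bases in the class = form. Such sole differences were counted in the 1502 loci with 1 class j and 1 class = form, where 373 forms differed only by a new first exon and 111 only by a new last exon.

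Added internal exons went with new outer exons, in part by definition. An added internal exon upstream of every class = form has a new first exon before it, and one downstream has a new last exon after it. Of the 4098 forms with an added internal exon, 2699 (65.9%) also had a new first exon and 1653 (40.3%) a new last exon, and 110 forms had added internal exons as their only difference. The 901 distinct added exons inside a class = form had a median of 129 bases (82 to 207), and 48.3% of them were multiples of 3 (interval 45.0 to 51.5%). The 4461 added exons elsewhere had a median of 162 bases, with 38.0% multiples of 3 (36.6 to 39.4%). For comparison, 36.7% of the class = internal exons that were not skipped were multiples of 3. In TCONS_00040234 of SINV19096 (scaffold00149, plus strand), an exon of 129 bases (141601 to 141729, exon 2) lies within the first reference intron of 2143 bases.

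Skipped exons were short and often a multiple of 3 bases long. Each exon was counted alone, also where 1 intron skipped several, and reading frames were not located. The 372 distinct skipped exons had a median of 90.5 bases (quartiles 48 and 153), against 192 bases (136 and 273) for the 24155 other internal exons of the class = forms. A multiple of 3 bases was found for 237 of them (63.7%, interval 58.7 to 68.4%), against 36.7% (36.1 to 37.4%) of the other internal exons. Exons of up to 30 bases made up 10.2% of the skipped exons and 0.840% of the others, and 18 of these 38 skipped short exons were multiples of 3. The exon was present in another assembled form of the locus for 219 of the 372 (58.9%). The named example is TCONS_00035555 of SINV18192 (scaffold00101, minus strand, 591280 to 602711), which shares 12 of 14 reference introns and skips exon 8 of 18 bases (597667 to 597684), joining its neighbours by an intron of 282 bases.

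Shifted splice sites were mostly close to the reference site and mostly moved by a multiple of 3 bases. Closeness is in part set by the rule, which needs overlapping exons and takes the nearest reference site. Coding position was not examined. The 1366 distinct introns with a shifted acceptor moved it by a median of 30 bases (quartiles 15 and 63), and 901 (66.0%, interval 63.4 to 68.4%) moved it by a multiple of 3. The 1146 with a shifted donor moved it by a median of 33 bases (12 to 72), and 798 (69.6%, 66.9 to 72.2%) by a multiple of 3. The remainders 1 and 2 took 17.9% and 16.2% of the acceptors and 17.0% and 13.4% of the donors. The exon became shorter for 837 acceptors and 679 donors, and longer for 529 acceptors and 467 donors. The multiple-of-3 share was 69.8% where an acceptor shortened the exon and 59.9% where it lengthened it. For donors it was 73.3% where the exon became shorter and 64.2% where it became longer.

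Single sizes stood out in both directions. The most frequent donor shift shortened the exon by 6 bases (51 introns), and the next shortened it by 4 bases (44), the main size that is no multiple of 3. Only 7 donors lengthened the exon by 4 bases. Acceptors that shortened the exon clustered at 24 bases (41 introns), 30 bases (39), 27 bases (35) and 36 bases (34), while the most frequent lengthening was 6 bases (35). A shift by 3 bases in either direction was found for 53 acceptors and 22 donors.

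**Figure D5:**
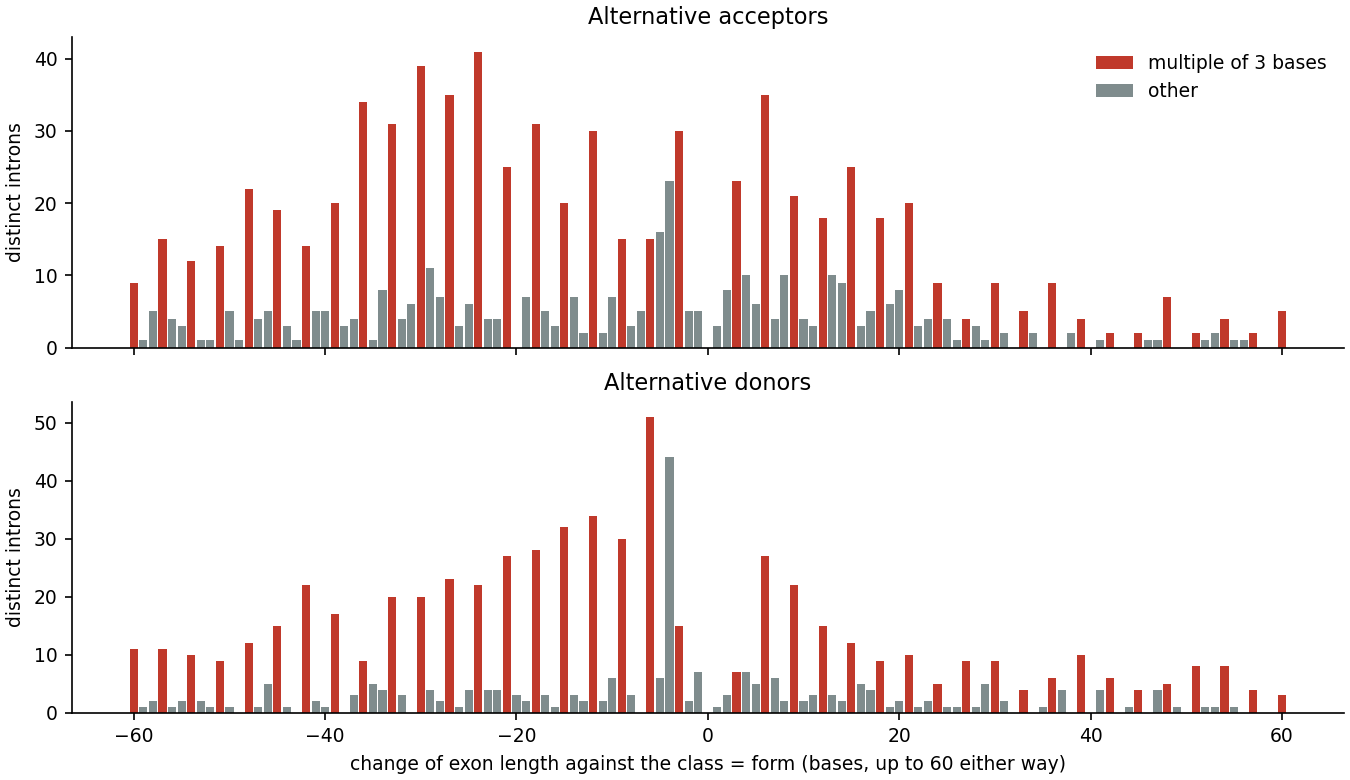
Number of distinct introns (y axis) by the change in exon length that a shifted acceptor (top) or donor (bottom) brings about (x axis, bases, negative for a shorter exon, shown up to 60 bases either way). Most bars of multiples of 3 (red) stand above the bars next to them (grey). The exceptions are acceptors that shorten the exon by 6 bases (15 introns, against 16 at 5 bases), donors that shorten it by 3 bases (15, against 44 at 4 bases) and donors that lengthen it by 3 bases (7, and 7 at 4 bases).

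The share of shifts by a multiple of 3 differed with whether the reference intron was also in an assembled form. Another assembled form of the locus held the reference intron for 852 of the 1366 acceptors (62.4%) and 603 of the 1146 donors (52.6%). There the multiples of 3 were 60.2% of acceptors (interval 56.9 to 63.4%) and 65.7% of donors (61.8 to 69.4%). Where no assembled form held it, they were 75.5% of 514 acceptors (71.6 to 79.0%) and 74.0% of 543 donors (70.2 to 77.5%). Skipped exons went the other way, but with overlapping intervals. Multiples of 3 were 68.5% of the 219 exons also in an assembled form (62.1 to 74.3%). They were 56.9% of the other 153 (48.9 to 64.4%). Assembled forms identical to a reference model can be listed under the copy of that model, and such forms are missed in these counts. On the other side, the shortest intron of assembled class = forms had 5 bases. Whether each reference intron in an assembled form was seen in reads was not tested.

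The named donor example is TCONS_00017066 of SINV16585 (scaffold00021, minus strand, 1615795 to 1623113), which shares 15 of 16 reference introns. Exon 14 ends 6 bases earlier, so that the intron (1618304 to 1618380) has 77 bases, against 71 bases in the class = form. The acceptor example is TCONS_00014543 of SINV16154 (scaffold00016, minus strand, 2499088 to 2506748). It shares 13 of 14 reference introns and lengthens exon 14 by 124 bases, to 161 bases against 37 in the class = form, a shift with remainder 1 on division by 3. In TCONS_00041212 of SINV20856 (scaffold00160, plus strand), both sites of intron 14 differ from the reference. The new intron has 90 bases (243475 to 243564) and the reference intron it replaces has 5 bases (243478 to 243482). Whether this 5-base gap of the reference model is a spliced intron was not tested, so the example need not be alternative splicing.

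Retained introns were multiples of 3 about as often as other introns. The 3067 distinct retained introns had a median of 255 bases (quartiles 90 and 477), against 155 bases (86 and 461) for the other class = introns of the loci. Multiples of 3 made up 33.9% of the retained introns (interval 32.3 to 35.6%) and 33.3% of the others. The same intron was spliced in another assembled form of the locus for 2211 of them (72.1%, 70.5 to 73.6%). In reference copies with 3 or more introns, the last intron made up 18.5% of 2760 retained introns and the first 13.0%, where each makes up 14.8% of all introns. Retention was the only difference in 637 forms. TCONS_00011469 of SINV14988 (scaffold00010, minus strand, 3677069 to 3691444) shares 20 of 21 reference introns and keeps the last, of 277 bases (3677798 to 3678074), inside a last exon of 1147 bases.

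Added introns, which split a reference exon, were short. The 491 distinct added introns had a median of 99 bases (quartiles 78.5 and 295), and 239 (48.7%, interval 44.3 to 53.1%) were multiples of 3. In TCONS_00031850 of SINV12220 (scaffold00075, minus strand), an added intron of 72 bases (545794 to 545865) splits exon 10, of 326 bases in the class = form, into exons of 158 and 96 bases.

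A form that ends inside a reference intron leaves that intron unspliced and lacks what lies beyond. This was seen at the 5′ end of 1107 forms and at the 3′ end of 926, and was the only difference in 657 forms. TCONS_00010336 of SINV17718 (scaffold00009, minus strand, 661159 to 669021) shares 20 of 23 reference introns. It ends in an exon of 609 bases that runs on into reference intron 21, and lacks reference exons 22 to 24.

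Forms that joined reference genes were larger than the rest. This follows in part from the rule, since such a form must reach exons of at least 2 genes. Exons of 2 reference genes were overlapped by 1980 class j forms, of 3 genes by 546 and of more by 287, up to 9 genes. In 2772 of these 2813 forms, genes that do not overlap each other were joined, and 1193 class j forms held whole introns of more than 1 gene. The joined forms had a median of 9 exons, 5317 bases and a span of 17555 bases, against 7 exons, 3461 bases and 6712 bases for the other class j forms. A class = chain was kept by 51.2% of the joined forms. They lay in 1119 loci, and 1144 of the 5044 loci with class j held more than 1 reference gene.

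At the extremes, the form with most exons was TCONS_00033774 of SINV17077 (scaffold00088, plus strand, 65205 to 97416), with 56 exons and 16704 bases, 51 introns shared and 4 new. The longest was TCONS_00044845 of XLOC_028590, with 38790 bases in 52 exons over 6 reference genes. The longest intron, 293796 bases on scaffold00151 (26548 to 320343), was new and belonged to TCONS_00040394, which overlaps SINV16851, SINV22197 and SINV25762 and shares no whole intron with them. The shortest introns in class j forms had 5 bases, in 88 distinct introns that were all reference introns, as in TCONS_00000350 of SINV15952 (contig22136, 2702 to 2706). Under 50 bases there were 370 shared introns and 1 new intron, of 6 bases, in TCONS_00038127 of SINV17176 (scaffold00126, 575381 to 575386). Reference introns under 50 bases made up 4.60% of the retained introns and 2.75% of all class = introns of the loci.

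The new forms were spread over the assembly, with 6085 on the plus and 6099 on the minus strand, over 592 of the 4321 scaffolds and contigs that carry a model. Scaffold00002 held most, 303 forms in 121 of its 215 loci with a spliced class = form (56.3%, interval 49.6 to 62.7%), followed by scaffold00010 with 302 forms in 125 of 190 such loci (65.8%, 58.8 to 72.2%). Scaffold00042, which covers the place of an odorant-binding protein of the supergene, held 55 forms in 20 of 74 such loci (27.0%, 18.2 to 38.1%), against 46.5% over all scaffolds. Its loci with a spliced class = form had a median of 4 reference introns, against 3 over all scaffolds. How far the share of loci with class j varies over all scaffolds was not examined, so no conclusion about the supergene is drawn.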

How the data were processed

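The authors assembled read pairs from the amplified antennal libraries into transcript models with Cufflinks on the Si_gnH genome assembly and merged them with the reference models. The deposited model file gives exon coordinates (the only values used from it, with no unit of level), locus and transcript identifiers, class codes and the nearest reference model. Versions of the assembly tools are not given in the sources used here. The deposited expected counts, made by the authors with RSEM on a transcript reference, were used only for the library totals, since the identifiers do not join. Columns of the authors' patterns of difference were not used.

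Exons were grouped by transcript and loci by gene identifier. Each class j form was compared with all class = forms of its locus in Python 3.11.15 (numpy 2.4.6, scipy 1.17.1). A splice site counted as known only at the same base. A shift was measured to the reference site of the exon that both forms overlap, taking the nearest where there were several. Exons, introns and shifts were counted once per locus unless forms are named. The comparison was checked on simulated transcripts of both strands, each with 1 difference from 1 reference form. Joined genes, forms with several differences and loci with several reference forms were not simulated. Medians carry quartiles or order-statistic intervals and shares Wilson intervals, all at 95%, and these cover counting error only. Each class was 1 pooled library, so nothing was tested. The members and the choice of comparisons were made with earlier results of these data known. Named forms are the 5 loci with most class j forms (8 with ties), for each kind of difference the form in a locus with 1 class j and 1 class = form that has it as the only difference and shares most introns, and the extremes of exon number, length and intron length. Introns, shifts and scaffolds named beyond these were chosen after their values were seen. No sequences are printed, because no genome of this build was used here. The planned comparisons of levels and of the study's gene lists were not run, since the gene names of the models and the expression tables differ.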

Additional observations from a re-analysis of the deposited data

How the results depend on the processing

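Of 112 alternative values, 45 stayed inside the 95% interval of the value reported and 2 changed sign. Against assembled class = forms (chosen after seeing the data), the median difference within loci became -24.5 bases in length, and the difference of the exon length medians became -2 bases, against 27. The class j minus class = difference of medians was 3 exons, and became 1 in loci with 1 class = form, 2 against spliced class = forms and 1 against assembled ones. For spliced length it was 2657 bases, and became 2086.5, 2545.5 and 451 in the same order, and 2318 without forms that join genes. For genomic span it was 5331.5 bases, and became 3454.5, 4992.5, 2652 and 3919 in that order. With each locus weighing the same, the length difference became 2076.25 bases and the span difference 3699.5 bases. The exon length difference became 3 bases for internal exons. The intron length difference of 23 bases became 10 in loci with 1 class = form, 66 against assembled class = forms, 53 with each distinct intron once and 16 for introns of at least 50 bases. Loci with more than 1 form, 60.0%, became 57.5% when counted per nearest reference model and 53.4% without forms that join genes. The share that kept a whole class = chain, 31.9%, became 27.2% against the nearest reference model only, 27.4% in loci with 1 class = form and 26.1% without forms that join genes. Retained introns, 25.2% of forms, became 22.4%, 22.9% and 23.7% in the same order, and new first exons, 48.0%, became 54.9% against the nearest reference model and 51.3% in loci with 1 class = form. New last exons, 25.0% of forms, became 33.1% and 26.9% under the same alternatives, and 23.4% with each locus weighing the same, above retained introns in all 3. Donor shifts by a multiple of 3, 69.6%, became 72.8% for shifts of at most 100 bases. With each locus weighing the same, whole chains were kept by 37.1%, retained introns found in 21.0%, new first exons in 46.6%, and 70.2% of skipped exons were multiples of 3, against 63.7%. The causes of these changes were not tested. The alternatives for expression levels (scaling, filter and pseudocount) were not run, because the identifiers do not join. No paired analysis was possible because each worker class is 1 pooled library and the models merge the libraries. The models carry no read depth per form, so how firmly a single form rests on reads is not known here.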
